A study of Homo sapiens with 12 samples.

Results

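The genes described here encode 10 proteins that liver cells secrete into plasma: albumin (ALB), transthyretin (TTR), retinol-binding protein 4 (RBP4), hemopexin (HPX), haptoglobin (HP), fetuin-A (AHSG), the alpha-1-microglobulin/bikunin precursor (AMBP), alpha-1-antitrypsin (SERPINA1), vitronectin (VTN) and angiotensinogen (AGT). They were chosen by symbol, and 14 of the 48106 probes on the array, for 10 of 20045 named genes, are annotated to them. The cells were HUH6, an established line of human hepatoblastoma, an embryonal liver tumour of childhood. One group of 6 samples received a pool of 4 siRNAs against the transcription factor GATA4 (GATA4 siRNA), and the other group of 6 received a non-targeting siRNA (NT siRNA). Both were transfected with the same lipid reagent at 0.1 uM siRNA for 6 h, and total RNA was taken 72 h after transfection began. All 12 samples are of this 1 cell line, and no label states that the replicates were grown as separate cultures. The p-values then cover the spread among these samples and no more, which may be technical.

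Hepatocytes make most of the soluble protein of plasma, and each protein here has a textbook task in the blood. Albumin carries fatty acids, bilirubin and drugs and holds up the osmotic pressure of plasma, transthyretin carries thyroxine and also binds the retinol carrier RBP4, and hemopexin and haptoglobin capture free heme and hemoglobin. Fetuin-A keeps calcium phosphate in solution, alpha-1-antitrypsin inhibits neutrophil elastase, vitronectin binds integrins and plasminogen activator inhibitor-1, and angiotensinogen is the substrate that renin cuts at the start of the angiotensin pathway. Their genes are switched on in liver by factors of the HNF1, HNF4, FOXA and C/EBP families, while GATA4 is known as a factor of early endoderm and liver bud development.

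Between 16067 and 16804 probes were detected per array, where detected means a detection p-value under 0.01, and 10196 named genes passed the filter of detection on at least 6 of the 12 arrays. All 10 plasma protein genes passed, each through a probe that was detected on all 12 arrays, so no member entered through 1 siRNA group only. The precision of the comparison between the siRNA groups is limited by the number of arrays. GATA4 itself read 108.3 to 119.3 signal units after GATA4 siRNA, with detection p-values of 0.252 to 0.738, against 137.1 to 168.8 units and detection p-values of 0 to 0.00909 after NT siRNA. It was therefore not above background in any GATA4 siRNA sample, and the fold is a bound: at least 1.19-fold lower after GATA4 siRNA. Unlike the members, GATA4 passed the detection filter through the NT siRNA samples alone, so no p-value is given for it. The bound sets the mean log2 value after NT siRNA (5.69) against 5.43, the GATA4 siRNA mean once each array's value is raised to that of its dimmest detected probe (4.49 as measured). Of 12 markers of hepatocytes and hepatoblasts, 9 were tested, among them AFP, GPC3, EPCAM and KRT8, while the probes of DLK1, IGF2 and KRT18 did not pass the detection filter. The 9 include the members ALB, TTR and SERPINA1, and their summed log2 level was 120.6 to 122.2 after GATA4 siRNA and 120.9 to 122.6 after NT siRNA. In these bulk samples, fewer cells of a type and less RNA per cell cannot be told apart.

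RefSeq promoter windows (GRCh38.p14, 250 bases before to 50 after the start, on the gene's own strand) were at hand for 8 of the 10 genes, in 11 windows; TTR and HP had no entry. The windows of ALB and AGT are shown because these genes changed after GATA4 siRNA, and those of HPX and VTN because they differed most between the 2 sets of replicates described further on. Capitals mark matches to 4 motifs searched. The GATA motif was AGATAA, or the same with a final G, or either of these with T as the first letter; it, CCAAT and the palindromic HNF1 motif were searched on both strands, and TATAAA on the gene's strand only. No 2 matches in the windows shown overlap.
ALB, chr4:73404037-73404336, plus strand: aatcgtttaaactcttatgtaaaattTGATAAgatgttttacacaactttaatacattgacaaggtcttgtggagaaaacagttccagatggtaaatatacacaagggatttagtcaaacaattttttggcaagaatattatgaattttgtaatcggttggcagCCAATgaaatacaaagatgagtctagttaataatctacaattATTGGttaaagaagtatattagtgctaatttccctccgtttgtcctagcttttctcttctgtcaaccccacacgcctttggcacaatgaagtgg
AGT, chr1:230714073-230714372, minus strand: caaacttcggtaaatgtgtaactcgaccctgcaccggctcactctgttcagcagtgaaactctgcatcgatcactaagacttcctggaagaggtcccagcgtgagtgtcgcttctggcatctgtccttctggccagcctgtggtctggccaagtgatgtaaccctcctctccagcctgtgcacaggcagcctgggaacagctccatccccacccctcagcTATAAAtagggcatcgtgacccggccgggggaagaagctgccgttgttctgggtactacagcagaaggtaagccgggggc
HPX, chr11:6440938-6441237, minus strand: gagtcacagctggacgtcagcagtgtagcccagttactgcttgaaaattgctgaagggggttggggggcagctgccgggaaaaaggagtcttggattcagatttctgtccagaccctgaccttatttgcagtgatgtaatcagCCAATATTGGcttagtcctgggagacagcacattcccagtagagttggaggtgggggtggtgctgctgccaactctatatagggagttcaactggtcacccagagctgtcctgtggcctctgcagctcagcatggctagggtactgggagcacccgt
VTN, chr17:28370258-28370557, minus strand: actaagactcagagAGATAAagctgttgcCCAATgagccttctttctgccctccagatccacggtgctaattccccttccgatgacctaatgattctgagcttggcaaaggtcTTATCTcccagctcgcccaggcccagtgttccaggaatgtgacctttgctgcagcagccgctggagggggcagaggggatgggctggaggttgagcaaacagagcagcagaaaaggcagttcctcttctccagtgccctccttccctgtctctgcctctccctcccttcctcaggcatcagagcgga

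The GATA letters occurred in 3 of the 11 windows, those of ALB (first base at -224 from the start), AHSG (-31) and VTN (-236 and, on the other strand, -137), where 25% of all 35116 promoter windows hold them. AGT, which rose after GATA4 siRNA, had no GATA match in its window but a TATAAA at -30. TATAAA occurred in 4 of the 11 windows, of 2 genes, against 7.33% of all windows. Besides AGT it was in every window of RBP4, which overlap in part, and RBP4 was not called. CCAAT was present in 5 of the 11 windows, each of another gene, against 34.6% of all windows, with matches in ALB at -86 and, reversed, at -44. The HNF1 motif was found in 0 of the 11 windows and in 0.0484% of all windows. So rare a string was unlikely in 11 windows whatever their genes, and inexact forms of it were not searched. Its absence therefore does not show that a window lacks an HNF1 site. In HPX the forward and the reversed CCAAT, at -107 and -102, stand end to end. These matches are strings of letters in a fixed window and say nothing of binding.

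After GATA4 siRNA, ALB was lower and AGT was higher, and the other 8 genes did not pass the test. ALB changed by -0.23 on the log2 scale (SE 0.049, a 1.17-fold lower level, limma adjusted p = 0.00577) and AGT by 0.20 (SE 0.043, 1.15-fold higher, limma adjusted p = 0.00646), both from 6 against 6 samples with the replicate number as a block. No member's 6 GATA4 siRNA values stood clear of its 6 NT siRNA values (0 of 10), which 1.68% of all genes did. The fit was made over all 10196 genes, of which 6.43% were called at an adjusted p under 0.05, 2.66% higher and 3.78% lower, and among the 10 plasma protein genes 1 was higher and 1 lower. The median log2 change of the 10 genes was 0.013, beside 0.0021 for all genes tested. Without the replicate block 0 of the 10 genes and 0.706% of all genes were called (0.196% higher and 0.51% lower), and the adjusted p was 0.206 for ALB and 0.255 for AGT. When replicates 1 to 3 formed 1 block and replicates 4 to 6 the other, in place of the 6 numbers, both genes passed (adjusted p = 0.00527 for ALB and 0.00815 for AGT), where 7.7% of all genes were called, 3.29% higher and 4.41% lower.

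**Figure D1:**
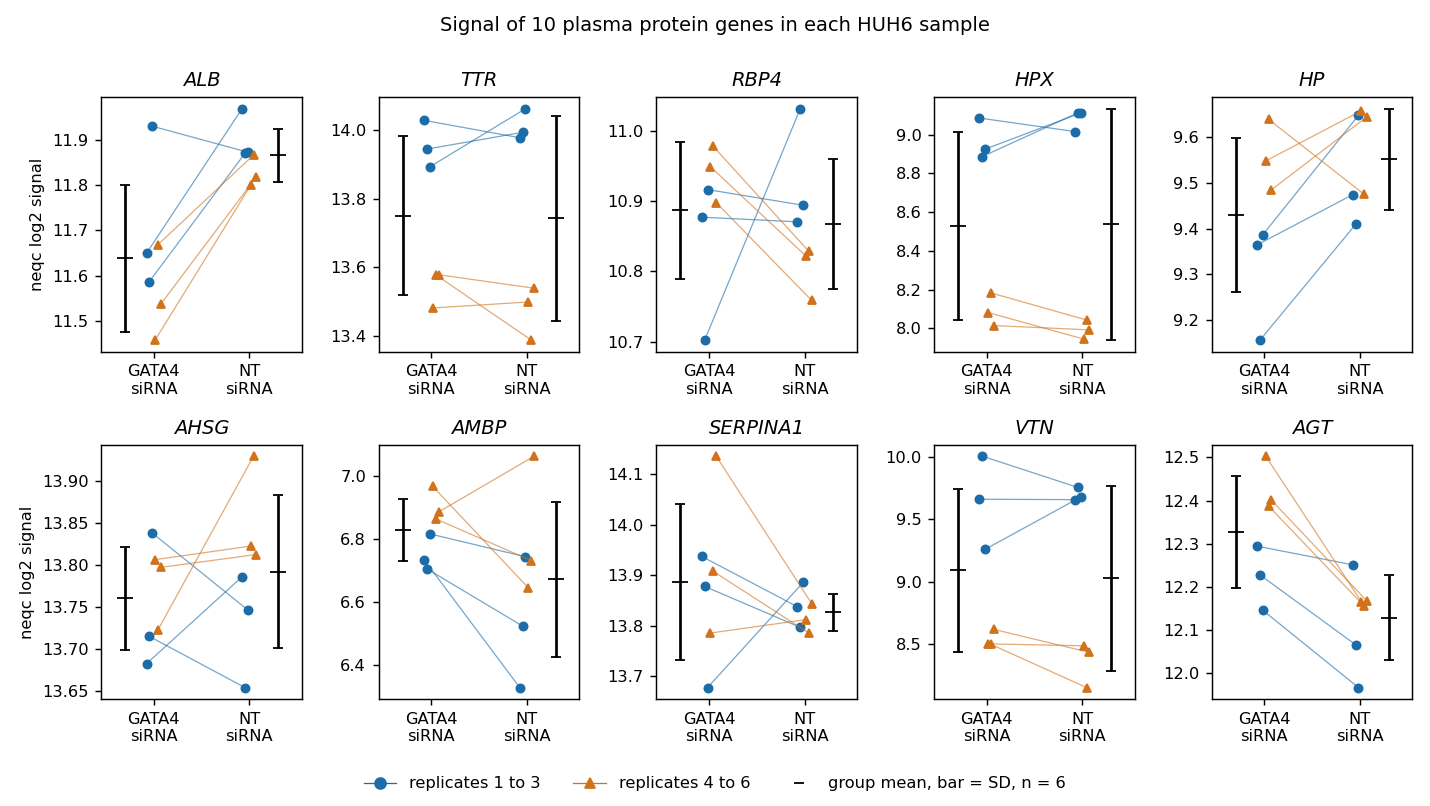
Background-corrected, quantile-normalised log2 signal of the 10 plasma protein genes (vertical axes, 1 scale per gene) in 6 GATA4 siRNA samples (left) and 6 NT siRNA samples (right); lines join samples of the same replicate number, circles are replicates 1 to 3, triangles replicates 4 to 6, and black bars give the mean and SD of each group. The lines of ALB descend towards GATA4 siRNA in 5 of 6 numbers, those of AGT rise towards it in 6 of 6, and HPX, TTR and VTN part by set in both groups.

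Albumin is read by 2 probes, and both were lower after GATA4 siRNA. The brighter probe gave raw signals of 2652.7 to 3767 (median 3504.5) in the GATA4 siRNA samples, against 3546.9 to 3983.8 (median 3744.6) in the NT siRNA samples. On the normalised log2 scale it averaged 11.64 ± 0.16 after GATA4 siRNA and 11.87 ± 0.059 after NT siRNA (SD, n = 6 each). All GATA4 siRNA samples lay below the lowest NT siRNA sample (11.80) except replicate 3 (11.93), so the groups overlapped in 1 sample. By replicate number the difference was -0.32, -0.28 and 0.057 in numbers 1 to 3 and -0.34, -0.20 and -0.28 in numbers 4 to 6, and an exact two-sided sign-flip permutation test of these 6 differences gave p = 0.0625. Samples were matched by number here, although the likeness of same-numbered samples was no closer than that of other numbers within replicates 1 to 3 or 4 to 6. The second, dimmer probe averaged 10.46 ± 0.19 after GATA4 siRNA and 10.73 ± 0.16 after NT siRNA (SD, n = 6 each), a log2 change of -0.27 (SE 0.048, adjusted p = 0.0023 over 16339 probes, of which 5.62% were called, 2.46% higher and 3.16% lower). On the normalised scale it was lower in all 6 numbers, by -0.36 to -0.12 (exact permutation p = 0.03125, the smallest that 6 pairs allow), so the call of ALB did not rest on 1 probe. In raw signal both probes were lower in numbers 1 to 5 but not in number 6. There the brighter probe read 3581.2 after GATA4 siRNA and 3551.3 after NT siRNA, and the dimmer 1670.9 and 1633.3. In the same fit over probes the brighter probe had an adjusted p of 0.0116.

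Angiotensinogen was higher after GATA4 siRNA in all 6 replicate numbers. It was the 1 member that went 1 way in all of them, which 11.7% of all genes did. Its single probe read 4368 to 6398.4 raw units (median 5451.9) in the GATA4 siRNA samples, against 4013.3 to 4812.9 (median 4517.3) in the NT siRNA samples. The log2 values averaged 12.33 ± 0.13 after GATA4 siRNA and 12.13 ± 0.099 after NT siRNA (SD, n = 6 each). The GATA4 siRNA samples of replicates 1, 4, 5 and 6 were above every NT siRNA sample, and those of replicates 2 (12.23) and 3 (12.15) lay within the NT siRNA range of 11.97 to 12.25. The differences ran from 0.043 in number 1 to 0.34 in number 4, and the exact permutation test gave p = 0.03125. A change at least as large in size as that of AGT was fitted for 11.7% of all genes, and as large as that of ALB for 8.34%.

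**Figure D2:**
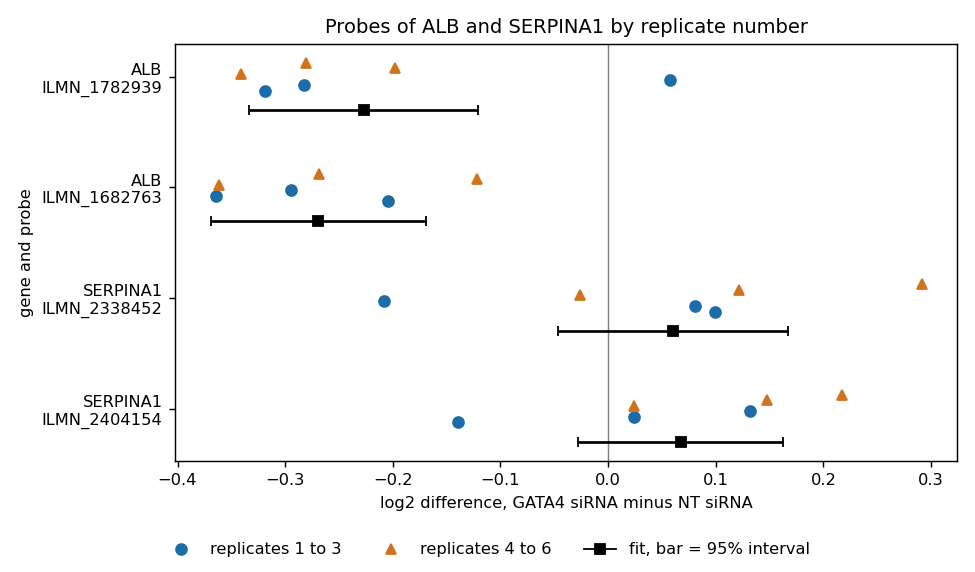
Log2 difference, GATA4 siRNA minus NT siRNA (horizontal axis), for the tested probes of ALB and SERPINA1, the genes read by over 1 tested probe; circles and triangles are the differences in replicates 1 to 3 and 4 to 6, and squares with bars the fitted change with its 95% interval. Both ALB probes have intervals below 0, while both SERPINA1 intervals include 0.

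The carriers of thyroxine and retinol did not pass. TTR read 11434 to 17266.1 raw units (median 13908) after GATA4 siRNA and 11118.4 to 17013.7 (median 13996.2) after NT siRNA. On the log2 scale TTR averaged 13.75 ± 0.23 after GATA4 siRNA and 13.74 ± 0.30 after NT siRNA (SD, n = 6 each), a log2 change of 0.0075 with a 95% interval of -0.083 to 0.098. It was higher in 3 numbers and lower in 3. RBP4, which circulates bound to transthyretin, averaged 10.89 ± 0.097 after GATA4 siRNA and 10.87 ± 0.093 after NT siRNA (SD, n = 6 each; change 0.019, interval -0.095 to 0.13). RBP4 was higher in 5 of 6 numbers, and number 2, with 10.70 in the GATA4 siRNA sample and 11.03 in the NT siRNA sample, went the other way. Both intervals end nearer to 0 than the fitted change of ALB.

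The heme and hemoglobin scavengers did not pass either. HPX read 337.4 to 666.7 raw units (median 486.7) after GATA4 siRNA and 329.3 to 666.1 (median 480.2) after NT siRNA. It had a log2 change of -0.0072 (95% interval -0.14 to 0.12), with 8.53 ± 0.49 after GATA4 siRNA and 8.54 ± 0.60 after NT siRNA (SD, n = 6 each). HP was the member nearest to a call after ALB and AGT, at -0.12 (interval -0.24 to -0.0032, adjusted p = 0.231), with 9.43 ± 0.17 after GATA4 siRNA and 9.55 ± 0.11 after NT siRNA (SD, n = 6 each). HP was lower in 5 of 6 numbers and the groups overlapped, with 679.1 to 936.2 raw units (median 774.7) after GATA4 siRNA and 765.2 to 925.7 (median 828.3) after NT siRNA. HP has a near-identical neighbour, HPR, and RNA of the 2 genes may not be told apart by the probe. AMBP, whose product is cut into the heme-binding alpha-1-microglobulin and the protease inhibitor bikunin, read 205.4 to 237.1 raw units (median 210.6) after GATA4 siRNA and 172.1 to 222.5 (median 196.1) after NT siRNA. Its change was 0.16 (interval -0.034 to 0.35, adjusted p = 0.36), higher in 5 of 6 numbers.

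Of the remaining members, AHSG, SERPINA1 and VTN did not pass. AHSG had a change of -0.032 (interval -0.12 to 0.057) from means of 13.76 ± 0.062 after GATA4 siRNA and 13.79 ± 0.091 after NT siRNA (SD, n = 6 each). SERPINA1 has 4 probes, of which 2 were detected on all 12 arrays and 2 on 0 of 12, with raw signals of 103.6 to 135.1 and detection p-values of 0.039 to 0.923. In the fit over probes the 2 detected ones gave 0.060 (interval -0.047 to 0.17) and 0.067 (-0.028 to 0.16), and the first spread more after GATA4 siRNA (13.89 ± 0.15) than after NT siRNA (13.83 ± 0.037; SD, n = 6 each), from 13.68 in replicate 3 to 14.14 in replicate 6 of the GATA4 siRNA samples. VTN read 418.4 to 1133.3 raw units (median 626.8) after GATA4 siRNA and 382.6 to 945.3 (median 660.0) after NT siRNA. It had a change of 0.063 (interval -0.089 to 0.22) with 9.09 ± 0.65 after GATA4 siRNA and 9.03 ± 0.74 after NT siRNA (SD, n = 6 each). Within both groups the high VTN values were those of replicates 1 to 3 and the low ones those of replicates 4 to 6.

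Within replicates 4 to 6 alone, ALB (-0.27, adjusted p = 0.00661) and AGT (0.27, adjusted p = 0.00661) were both called, where 5.19% of all genes were, 1.92% higher and 3.27% lower. Within replicates 1 to 3 alone the same genes had changes of -0.18 (adjusted p = 0.29) and 0.13 (adjusted p = 0.38) and 0 of the 10 were called, where 1.19% of all genes were (0.353% higher and 0.834% lower). The difference between the sets was itself tested as an interaction and did not pass for any member or any other gene: limma called 0 of 10196 genes (0%), while 8.17% had an unadjusted p under 0.05. For ALB the change in replicates 4 to 6 minus that in 1 to 3 was -0.092 (SE 0.097, adjusted p = 0.83), and for AGT it was 0.14 (SE 0.081, adjusted p = 0.654). The lowest adjusted interaction p of a member was that of RBP4 (0.24, SE 0.097, limma adjusted p = 0.542), with changes of 0.14 in replicates 4 to 6 and -0.10 in replicates 1 to 3.

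**Figure D3:**
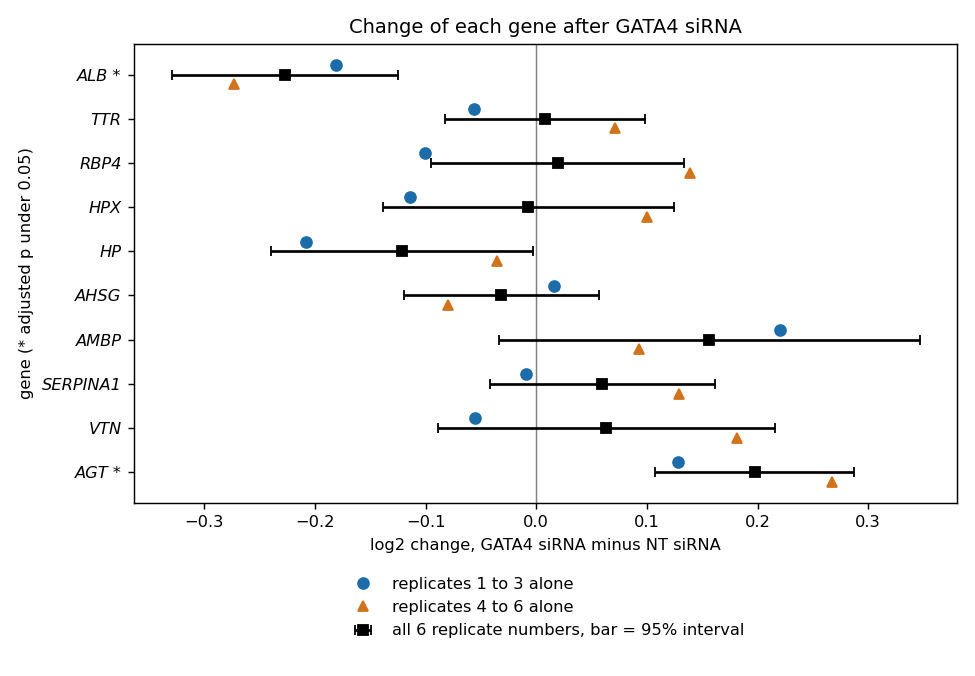
Fitted log2 change, GATA4 siRNA minus NT siRNA (horizontal axis), for the 10 genes; squares with bars give all 6 replicate numbers with the 95% interval, circles replicates 1 to 3 alone and triangles replicates 4 to 6 alone. ALB lies left of 0 and AGT right of 0 in both sets, while TTR, RBP4, HPX, AHSG, SERPINA1 and VTN have their circle and triangle on opposite sides of 0.

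The larger differences among these genes were between replicates 4 to 6 and replicates 1 to 3, in both siRNA groups. The labels name no batch, and the sets were defined from the values of these arrays, so the differences are given with no test. VTN averaged 8.45 ± 0.16 in replicates 4 to 6 and 9.67 ± 0.24 in replicates 1 to 3 (SD, n = 6 arrays each), 2.33-fold lower in replicates 4 to 6. HPX averaged 8.04 ± 0.083 in replicates 4 to 6 and 9.02 ± 0.098 in replicates 1 to 3, 1.97-fold lower. The raw signals of VTN were 382.6 to 561.1 in replicates 4 to 6 and 692.5 to 1133.3 in replicates 1 to 3. Those of HPX were 329.3 to 410.2 in replicates 4 to 6 and 563.1 to 666.7 in replicates 1 to 3, so neither gene overlapped before normalisation either.

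TTR averaged 13.51 ± 0.072 in replicates 4 to 6 and 13.98 ± 0.060 in replicates 1 to 3 (SD, n = 6 arrays each), 1.39-fold lower. These 3 genes, VTN, HPX and TTR, were the members whose 6 arrays of replicates 4 to 6 did not overlap the 6 of replicates 1 to 3, all lower, where 14.3% of all genes were lower and 11.4% higher without overlap (25.7% in all). With arrays scaled to equal medians in place of quantiles, TTR overlapped (log2 difference -0.36) and AHSG (0.20) stood higher without overlap. A difference as low as that of VTN was found in 0.549% of all genes, as low as that of HPX in 1.16%, and as low as that of TTR in 7.91%. ALB (-0.12), RBP4 (-0.0098), SERPINA1 (0.043), AHSG (0.078), AGT (0.14), HP (0.17) and AMBP (0.22) differed less between the sets, and their arrays overlapped. The median over the 10 genes was 0.017, beside 0.014 over all genes.

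The set differences of VTN, HPX and TTR had the same sign in each siRNA group. In the GATA4 siRNA samples they were -1.10, -0.87 and -0.41, and in the NT siRNA samples -1.34, -1.09 and -0.54, with 3 against 3 samples not overlapping in each. In such comparisons of 3 against 3 samples, 6 of the 10 genes did not overlap within GATA4 siRNA and 6 within NT siRNA, where 46.8% and 48.8% of all genes did not. Genes used as markers of the cells themselves and of other cell types also differed between the sets, although all 12 samples are of 1 cell line. The summed log2 level of the 9 hepatocyte and hepatoblast markers, was 120.6 to 121.3 in replicates 4 to 6 and 122.0 to 122.6 in replicates 1 to 3. Of these 9, 2 were lower without overlap, TTR itself and KRT8 (-0.38), 0 were higher without overlap, and GPC3 (0.028) and SERPINA1 had positive differences. Of 10 markers of stellate cells and fibroblasts 6 were tested, and 4 of them were lower in replicates 4 to 6 without overlap (summed log2 level 56.0 to 57.2 in replicates 4 to 6 and 59.1 to 60.5 in replicates 1 to 3), while COL1A1, COL3A1, DCN and LUM did not pass the detection filter. Of 8 macrophage markers 4 were tested and all 4 were lower without overlap (26.9 to 27.8 in replicates 4 to 6 and 30.9 to 31.9 in replicates 1 to 3), while MARCO, C1QA, C1QB and LYZ did not pass the filter. Among these 4, CD163 averaged 5.15 after GATA4 siRNA and 5.17 after NT siRNA, with a set difference of -0.96. The dimmest detected probes of the GATA4 siRNA arrays averaged 5.43. CD163 may thus have passed the filter through replicates 1 to 3 alone, and its lower level is then not a separate result. Of 9 cholangiocyte markers 6 were tested, of which CFTR (-0.59) was lower and SOX9 (0.33) and TFF3 (0.39) were higher in replicates 4 to 6 without overlap. The 1 tested lymphocyte marker of 7, CD3D, was lower without overlap (-0.95), the 1 tested endothelial marker of 6, PECAM1, overlapped (0.014), and 0 of 6 erythroid markers were tested. The part of these markers in the differences of VTN, HPX and TTR was not tested.

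**Figure D4:**
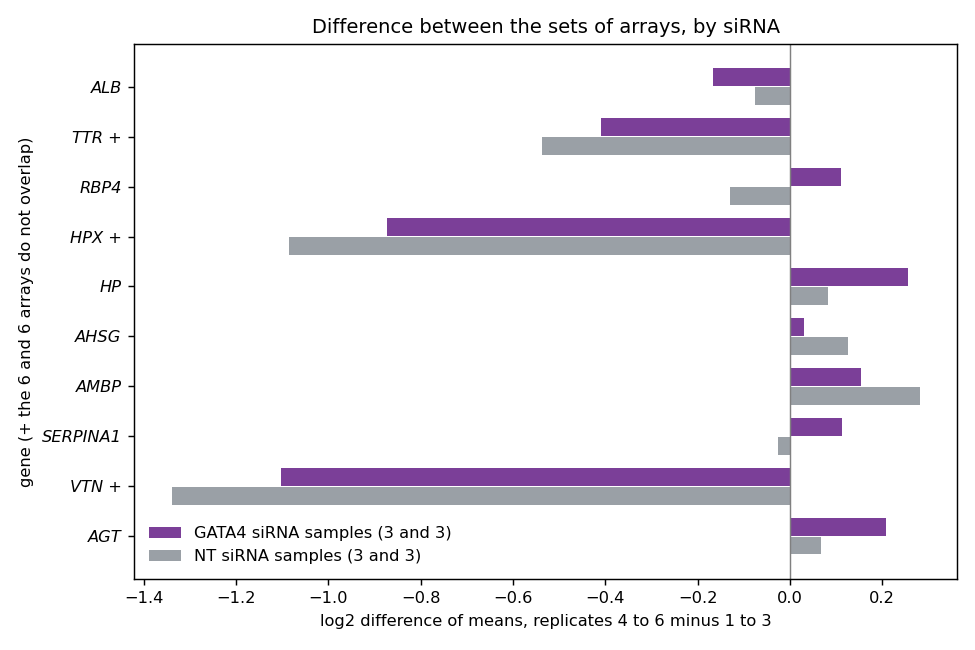
Log2 difference of means, replicates 4 to 6 minus replicates 1 to 3 (horizontal axis), for the 10 genes within the 6 GATA4 siRNA samples (upper bar of each pair) and within the 6 NT siRNA samples (lower bar). VTN, HPX and TTR are lower in replicates 4 to 6 in both groups, from -0.41 to -1.34, and the bars of the other genes lie between -0.17 and 0.28.

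Genes around the 10 members were read in 5 lists, in the fit of GATA4 siRNA against NT siRNA with the replicate block, beside shares of 2.66% higher and 3.78% lower over all genes. Of 26 tested genes for other secreted carriers and protease inhibitors of plasma, 0 were higher and 3 were lower. These were CPN2 (-0.21, adjusted p = 0.0135), the regulatory subunit of carboxypeptidase N, SELENOP (-0.21, adjusted p = 0.0248), the plasma carrier of selenium, and KNG1 (-0.18, adjusted p = 0.0311), the precursor of bradykinin. The median change of the list was 0.063, on the opposite side of 0 from its called genes. AFP, the fetal counterpart of albumin, had a change of -0.014 (adjusted p = 0.895).

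Of 19 tested receptors, cargo partners and processing enzymes of the members, 4 were higher and 0 lower, with a median of 0.024. CRABP2, which carries retinoic acid inside cells, rose by 0.33 (adjusted p = 0.00575). DIO1, which converts thyroxine to its active form, rose by 0.24 (adjusted p = 0.0183), and its other probes read 0.23 and 0.21 without a call. RDH11, a retinal reductase, rose by 0.17 (adjusted p = 0.0208), with 0.13 at its other probe, which was not called. The 4th was ASGR1 (0.15, adjusted p = 0.048), a subunit of the asialoglycoprotein receptor, named after its value was seen. The hemoglobin-haptoglobin receptor CD163 had a change of -0.024 and LRP1, the receptor of heme-hemopexin, of -0.093, neither called. Between the sets, 7 of these 19 genes were lower and 2 higher in replicates 4 to 6 without overlap, where 14.3% of all genes were lower and 11.4% higher. Among the 7 were CD163 and PLAUR, with mean log2 values of 5.15 and 5.69 after GATA4 siRNA and set differences of -0.96 and -1.08. Both were dim and may have passed the detection filter through replicates 1 to 3 alone. Their lower level is then not a separate result.

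Of 22 tested hepatocyte transcription factors, 0 were higher and 3 lower (2.66% and 3.78% over all genes), with a median of -0.058. TEF, a PAR bZIP factor, changed by -0.43 (SE 0.090, adjusted p = 0.00457), CREB3L3, a liver factor activated by proteolysis, by -0.34 (SE 0.075, adjusted p = 0.00715) and FOXA2, a pioneer factor of endoderm, by -0.15 (SE 0.044, adjusted p = 0.0367). CEBPA, a long known regulator of the albumin promoter, had 0.072 (adjusted p = 0.343), and FOXA1 -0.12 (adjusted p = 0.088). Of 16 tested genes of interleukin-6 and acute phase signalling, 0 were higher and 1 was lower. That gene was FGG, the fibrinogen gamma chain (-0.19, adjusted p = 0.0153), and its other probe read -0.19 without a call. CRP, SAA1, SAA2, SAA4 and C3 of that list did not pass the detection filter. Of 40 tested genes of the secretory pathway of the endoplasmic reticulum, 0 were higher and 1 was lower, SURF4, a cargo receptor for export from that compartment (-0.21, SE 0.046, adjusted p = 0.0056). Without the block 0 genes of the 5 lists were called. In stellate cell and fibroblast markers, 2 of 6 tested were higher after GATA4 siRNA, TAGLN (0.24) and COL1A2 (0.22), where 2.66% of all genes were. Without the block neither was called (adjusted p = 0.829 and 0.845). The others, RGS5 (0.18), PDGFRB (0.16), ACTA2 (0.00023) and VIM (-0.073), were not called with it either. The list had a summed log2 level of 56.4 to 60.5 after GATA4 siRNA and 56.0 to 59.5 after NT siRNA, and its part in the changes of ALB and AGT was not tested. Of the tested cholangiocyte, macrophage, endothelial and lymphocyte markers 0 were called in this comparison. Among the 9 hepatocyte and hepatoblast markers 0 were higher and 1, ALB itself, was lower.

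**Figure D5:**
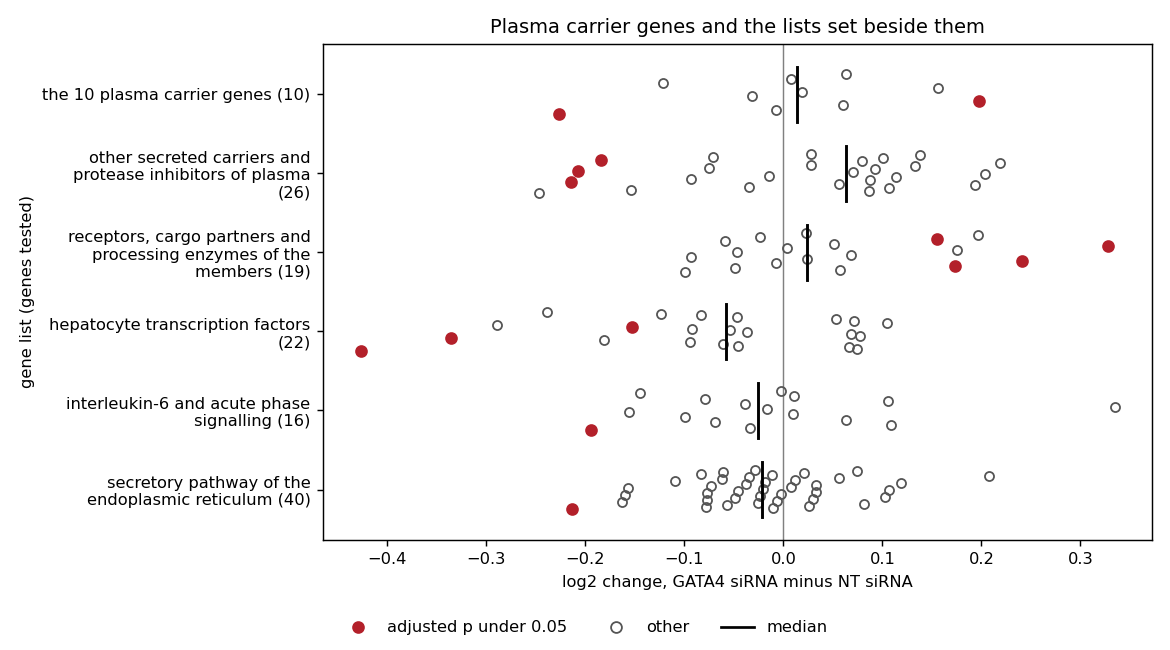
Log2 change, GATA4 siRNA minus NT siRNA (horizontal axis), of the 10 plasma protein genes (top row) and of the tested genes of the 5 lists set beside them; each circle is a gene, filled where its adjusted p was under 0.05, and the vertical stroke is the median. The medians run from -0.058 to 0.063, and filled circles stand on both sides of 0 in the top row only.

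By Pearson's r of the log2 values over the 12 arrays, the genes most like ALB among non-members were RGN (0.94), FAM91A1 (0.92) and GNA13 (0.90). Within the 6 arrays of replicates 4 to 6 these r were 0.91, 0.98 and 0.87, and within the 6 of replicates 1 to 3 they were 0.96, 0.95 and 0.98. RGN encodes regucalcin, a calcium-binding protein abundant in liver, FAM91A1 a protein of vesicle trafficking and GNA13 a G protein alpha subunit. FAM91A1 (-0.24, adjusted p = 0.0286) and GNA13 (-0.17, adjusted p = 0.0428) were also called lower after GATA4 siRNA, and RGN had -0.19 (adjusted p = 0.0626). The genes most like AGT were CRNDE (0.93), a long non-coding RNA, RNF5P1 (0.91), a pseudogene, and ZC3H18 (0.91), a zinc finger protein of RNA processing, with changes of 0.19, 0.21 and 0.12 that were not called. These r are picked as the highest among all genes tested and share the arrays, the siRNA groups and the sets, so they describe likeness only. Between ALB and AGT themselves r was -0.97 within replicates 4 to 6 and -0.43 within replicates 1 to 3, over 6 arrays each that hold both siRNA groups.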

How the data were processed

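Per the labels' protocols, biotin-labelled RNA of HUH6 cells was measured on the Illumina HT-12 v4 array. The authors deposited a table of linear signal intensity per probe, exported from GenomeStudio (the submitters' processing notes name no version), with a detection p-value per probe and array, per the file headers; the lowest signal is 82.2. Their deposited normalised table holds log2 values made by a method not named in the sources used; they differ by at most 0.0141 from quantile-normalised log2 signals, and the deposited series table is identical to it.

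Gene names came from GEO's platform annotation, updated by gene ID through RefSeq. Signals were processed with neqc of limma 3.58.1 (R 4.3.3; background from the detection p-values, offset 16, quantile normalisation). Of 48106 probes 16339 had a detection p under 0.01 on at least 6 of 12 arrays, and the one with the highest mean signal stood for each of 10196 genes. Groups were compared with lmFit and eBayes (mean-variance trend, two-sided), with the replicate number as a block and Benjamini-Hochberg adjustment over all genes, threshold 0.05. The fit was tested on simulated data.

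Same-numbered samples deviated together from their group means (r over genes 0.547 to 0.603), but samples of other numbers within replicates 1 to 3 or 4 to 6 did so as closely (0.548 to 0.629). With the means of these sets removed, same-numbered samples had r of -0.061 to 0.012, so the likeness is that of the set and none is seen for the number itself. The members, lists and tests were chosen with earlier results of these data known. Named are all members, GATA4, up to 3 higher and 3 lower called genes per list, and the 3 genes most like each called member; AFP, CD163, LRP1, CEBPA, FOXA1, ASGR1 and the markers were named with their values in view. Alternatives changed the block, values, background, scaling, filter, probe rule, variance model, array weights and samples. Promoter windows are from RefSeq, and probe and protein sequences were not used here.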

Additional observations from a re-analysis of the deposited data

Results flagged for a closer look

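Dixon's test for a lone sample was applied to each of the 12 tested probes in both siRNA groups, 24 groups of 6 samples, of which chance would pick about 1.2. It picked 1: RBP4 read 10.70 on the log2 scale in GATA4 siRNA replicate 2, with the other 5 GATA4 siRNA samples at 10.88 to 10.98. Without replicate number 2 the change of RBP4 was 0.089.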

How the results depend on the processing

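ALB stayed lower and AGT higher after GATA4 siRNA under all 21 alternatives, at log2 changes of -0.28 to -0.18 and 0.13 to 0.27, with adjusted p-values of 0.000445 to 0.29 and 0.00397 to 0.433. Both calls ended without the replicate block (0 members, 72 genes in all, against 2 and 656) and within replicates 1 to 3. There 0 members were called, with 121 genes in all with the block and 175 without it, a fit added after the data were seen. Replicates 4 to 6, with as many samples, kept both calls, with 529 genes in all with the block and 552 without it. The reason was not tested. All genes called also moved to 360 with arrays scaled to equal medians and to 398 with no filter, where more genes are tested; the members called stayed 2 in both. Leaving out each replicate number (both samples, since a lone one adds nothing under the block) gave 2 to 2 members and 445 to 587 genes. Members not called turned sign: TTR to -0.024 with equal medians, HPX to 0.0072 with array weights and to 0.10 within replicates 4 to 6, and within replicates 1 to 3, with or without the block, TTR to -0.056, RBP4 to -0.10, AHSG to 0.016, SERPINA1 to -0.0092 and VTN to -0.055. Over the left-out numbers TTR ran from -0.029 to 0.043, HPX from -0.037 to 0.036, RBP4 from -0.0068 to 0.089 and AHSG from -0.056 to 0.0035; VTN (0.0067 to 0.16) and SERPINA1 (0.014 to 0.11) kept their sign. AMBP was 0.078 on the authors' values and without background correction, against 0.16. The cause was not tested. Between the sets, 3 members did not overlap, against 6 within GATA4 siRNA and 6 within NT siRNA, where 3 rather than 6 arrays a side enter. On the authors' log2 values VTN and HPX differed by -1.03 and -0.77. A block by beadchip was not run, since the files name no chip. A p that misses the threshold does not show equal levels, and a shift as small as 0.2 is near what 6 pairs resolve here (SE 0.043 to 0.092).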
